A study of Mus musculus with 6 samples.

Results

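Stefins and cystatins are the natural inhibitors of papain-like cysteine proteases, and 7 mouse genes were taken as members by their symbols: Stfa1, Stfa2, Stfa2l1, Stfa3, Cstb, Cst3 and Cst7. A member's values came from probe sets (groups of array probes designed to 1 transcript) that the platform annotation pairs with exactly 1 gene symbol. This gave 6 probe sets for 5 genes, of 45037 probe sets and 18193 named genes in all. Stfa1 was present only on probe set 1435761_at, which the annotation also pairs with Cstdc5, and Stfa2 had no probe set in the annotation used here. The members were chosen by their log2 changes between the groups on these same arrays, where stefins stood among the largest falls. Their values are therefore a description, and no test on them is given as evidence.

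The study measured RNA on 6 Affymetrix arrays, 3 from marrow cells of mice transplanted with cells labelled ASXL1-MT, which had a disease like myelodysplastic syndrome, and 3 from mock-transplanted mice described as normal controls. The comparison asks how expression in myeloid marrow differs between these groups. Per the series text, cells carrying CD3e, B220 or TER-119, markers of T, B and red cells, were removed with magnetic beads in both groups, while the sample labels state this for mock alone. The labels give no strain, age, vector or time after transplantation, and do not say which ASXL1 alteration was used, what the mock mice received, or whether a sample was 1 mouse or a pool. With nothing to show that replicates are separate animals, a p-value covers the variation among these 6 samples, part of which may be technical.

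Stefins are small cystatins without a signal peptide that act inside cells, where they bind cathepsins that reach the cytosol. Mice carry a run of stefin A genes that is strongly used in neutrophils, while stefin B, encoded by Cstb, is made in most cells and its loss causes a progressive myoclonus epilepsy in humans. Cystatin C, encoded by Cst3, is secreted by many cells and is abundant in macrophages and dendritic cells. Cystatin F, encoded by Cst7, is made by immune cells, is sorted to lysosomes and granules, and after processing restrains cathepsin C, the enzyme that activates granule serine proteases.

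In the RefSeq table of mouse assembly GRCm38.p6, the 4 Stfa members are spread through a run of 12 protein-coding genes on chromosome 16, from Csta1 at one end through Stfa2l1 and Stfa1 to Stfa2 and Stfa3 at the other. Their start regions are much alike. Over 300 bases, 250 before and 50 after the start, the 6 pairs among the 4 Stfa members were 79.0% to 91.7% identical in a global alignment, against 42.3% to 51.7% for their 8 pairs with Cst3 and Cst7. Other genes of the run varied, with 47.3% to 89.7% over 28 pairs with the Stfa members. Among them Cstdc5 was close, with 77.0% to 89.7%. Csta2, with 47.3% to 51.0%, and Cstdc3, with 50.0% to 52.0%, were about as far from the Stfa members as Cst3 and Cst7 were. Stfa2 and Stfa2l1 were the closest pair of members, and Stfa2l1 and Stfa3, the members with the largest falls, shared 82.7%. RefSeq promoters were matched for 6 of the 7 members, all but Cstb. The regions of Stfa2l1 (chr16:36156561-36156860, plus strand) and Stfa3 (chr16:36455343-36455642, minus strand) are shown because both genes fell together, with capitals for the runs of 10 or more bases found in all 4 Stfa regions. The region of Cst7 (chr2:150570165-150570464, plus strand), the other member that fell, is shown beside them, with capitals for its match to AGGAAGT, a PU.1-type motif.
Stfa2l1: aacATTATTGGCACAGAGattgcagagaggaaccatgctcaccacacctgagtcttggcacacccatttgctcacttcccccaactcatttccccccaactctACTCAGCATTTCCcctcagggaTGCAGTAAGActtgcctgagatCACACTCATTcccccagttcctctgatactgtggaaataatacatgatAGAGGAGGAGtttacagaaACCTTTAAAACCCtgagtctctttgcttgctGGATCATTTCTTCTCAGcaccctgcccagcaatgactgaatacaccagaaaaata
Stfa3: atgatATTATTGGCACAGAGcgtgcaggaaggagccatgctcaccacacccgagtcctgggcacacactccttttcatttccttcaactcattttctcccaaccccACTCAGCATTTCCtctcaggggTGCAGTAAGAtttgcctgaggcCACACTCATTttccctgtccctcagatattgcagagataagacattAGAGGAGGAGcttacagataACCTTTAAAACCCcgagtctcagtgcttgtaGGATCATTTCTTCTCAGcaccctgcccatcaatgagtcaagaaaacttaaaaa
Cst7: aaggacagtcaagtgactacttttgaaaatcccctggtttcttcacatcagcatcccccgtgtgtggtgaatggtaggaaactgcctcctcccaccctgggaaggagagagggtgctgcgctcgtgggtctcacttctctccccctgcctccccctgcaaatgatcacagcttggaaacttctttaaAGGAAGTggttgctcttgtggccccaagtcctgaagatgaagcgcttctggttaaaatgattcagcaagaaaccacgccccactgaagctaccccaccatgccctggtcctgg

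The longest shared run, GGATCATTTCTTCTCAG, has 17 bases and was found in 6 of the 32851 promoters of the table. Those 6 belong to the 4 Stfa members and to Csta3 and Cstdc5, genes of the same run on chromosome 16. The run ACCTTTAAAACCC holds the letters TTTAAA, which begin at positions -33 to -29 from the start site in the 4 Stfa members and occur in 13.2% of all promoters of the table. The TATA box letters TATAAA were in 0 of the 6 member promoters and in 13.6% of all promoters. AGGAAGT, searched like the others on both strands, was in 1 of the 6 members, Cst7, at position -63, and in 9.35% of all promoters, and it overlaps TTTAAA there by 1 base. The palindrome TTGCGCAA, a C/EBP-type motif, was in 0 of the 6 and in 0.183% of all promoters. These motifs were searched after the member sequences had been read, and a match says only that the letters are present.

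All array values below are log2 signals centred on the median of each probe set over the 6 arrays, with the log base taken as 2, and changes are differences of group means, ASXL1-MT minus mock. Centring removes the level, so the values cannot be compared as levels between genes. It also places the nearest arrays of non-overlapping groups at equal distances from 0. A probe set is called bright where the rounding of its 3 highest arrays shows a signal of 256 or more, which held for 38.5% of all probe sets. Replicates were closer in bright probe sets, with a median SD of 0.183 inside a group, than in the others, with 0.812. Array medians lay between 0.02 and 0.05 in ASXL1-MT and between -0.05 and -0.03 in mock, and probe sets as a whole had a median change of 0.106. That median moved to 0.004 with cyclic loess, so member changes are also given relative to 0.106.

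Among the members, the 2 measured stefin A genes and Cst7 were lower in ASXL1-MT marrow, Cst3 was slightly higher, and Cstb hardly moved. ASXL1-MT and mock arrays were fully separated in 4 of 6 member probe sets, 3 lower and 1 higher, and overlapped in the 2 of Cstb. Over all probe sets 35.4% were separated, 13.7% lower and 21.7% higher. In limma's test over the whole table, at a Benjamini-Hochberg threshold of 0.05, 3 of 6 member probe sets were called lower and 0 higher. The background was 8.10% of all probe sets called, 3.37% lower and 4.73% higher, or 2130 higher of 3646 calls. By gene, 3 of 5 members were called lower and 0 higher, where the background was 11.4% of genes called, 4.75% lower and 6.63% higher. Separated groups were found in 4 of 5 member genes, 3 lower and 1 higher, and in 37.9% of all genes, 14.4% lower and 23.5% higher. Nothing is read from these counts, since the contrast was known when the members were picked. The share of higher calls in the whole table was 58.4% as deposited, 47.9% after quantile normalization and 46.2% after cyclic loess. As the arrays measure bulk RNA, fewer cells of a type and less RNA per cell cannot be told apart.

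**Figure D1:**
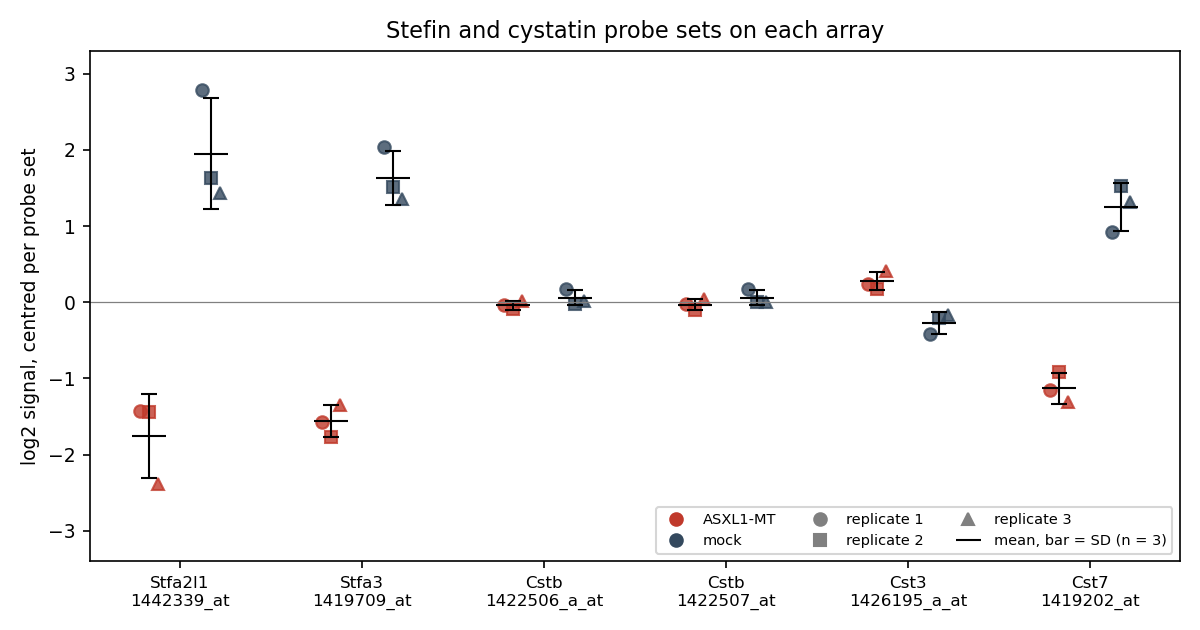
Centred log2 signal (vertical axis) of the 6 member probe sets on each array, ASXL1-MT in red left of mock in dark blue, with a symbol for each replicate and the mean ± SD (n = 3) in black. The groups stand apart for Stfa2l1, Stfa3, Cst3 and Cst7 and overlap for both probe sets of Cstb.

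Stfa2l1, a stefin A-like gene, had the largest fall of the members. Its probe set 1442339_at gave -1.43, -1.44 and -2.39 in ASXL1-MT replicates 1 to 3, against 2.79, 1.63 and 1.43 in mock replicates 1 to 3. All ASXL1-MT arrays were below all mock arrays, with a gap of 2.87 between the nearest, and the spread within mock came from replicate 1, which was the highest. The means were -1.75 ± 0.55 in ASXL1-MT and 1.95 ± 0.73 in mock (SD, n = 3 each), a change of -3.70 (SE 0.48), or 13.0-fold lower in ASXL1-MT. Relative to all probe sets the change was -3.81. It was number 107 from the lowest among the 45037 probe sets, and the probe set was bright with all 6 arrays on the coarse rounding step, which with base 2 places all 6 signals at 256 or more. With 1 array left out the change ran from -3.96 to -3.28. Stfa2l1 was called in 1 of 6 such fits as a probe set and in 4 of 6 as a gene.

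Stfa3, a second stefin A gene at the far end of the same run, moved likewise. Probe set 1419709_at gave -1.57, -1.77 and -1.35 in ASXL1-MT marrow, against 2.04, 1.51 and 1.35 in mock, with no overlap and with mock replicate 1 again the highest. The means were -1.56 ± 0.21 in ASXL1-MT and 1.63 ± 0.36 in mock (SD, n = 3 each), a change of -3.20 (SE 0.25), 9.16-fold lower in ASXL1-MT, or -3.30 relative to all probe sets. The change ran from -3.34 to -2.99 with 1 array left out, and Stfa3 was called in 3 of 6 such fits as a probe set and in 6 of 6 as a gene. This probe set was not bright. Differences among its 3 mock arrays lay on the coarse step of bright signals and those among its 3 ASXL1-MT arrays did not.

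The other stefin A genes could be followed only in part. Probe set 1435761_at, ambiguous between Stfa1 and Cstdc5, gave 0.01, -0.01 and -0.31 in ASXL1-MT marrow, against 1.49, -0.15 and 0.41 in mock, so its groups overlapped and mock replicate 1 was the highest array. Probe set 1449909_at, ambiguous between Cstdc4 and Csta2, gave -0.14, -2.47 and -0.39 in ASXL1-MT marrow, against 0.82, 0.14 and 0.89 in mock, so its groups did not overlap and its change was -1.62 (SE 0.68, not called). Csta1, the first gene of the run and no member, was on 1 probe set and had -0.97, -0.10 and 0.10 in ASXL1-MT marrow, against 0.48, -0.10 and 0.18 in mock. The Csta1 groups overlapped, and its change of -0.51 did not pass limma's test over all genes (adjusted p = 0.384). The stefin genes are near copies of each other, probe sequences were not used here, and signal of one paralogue on the probe set of another was not tested.

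Cstb, the widely made stefin, was measured by a pair of probe sets that differed by at most 0.02 on any array. Probe set 1422506_a_at gave -0.04, -0.09 and 0.02 in ASXL1-MT marrow, against 0.17, -0.02 and 0.02 in mock. The groups overlapped, and mock replicate 1 was the highest array. The change was -0.10 (SE 0.14, 95% interval -0.45 to 0.26) on that probe set and -0.09 (SE 0.14, 95% interval -0.45 to 0.28) on 1422507_at. Relative to all probe sets these were -0.20 and -0.19. Both probe sets were bright on all 6 arrays, and as a gene Cstb ran from -0.19 to -0.03 over 14 alternatives.

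Cst3 was the only member that was higher in ASXL1-MT. Probe set 1426195_a_at gave 0.24, 0.17 and 0.41 in ASXL1-MT marrow, against -0.42, -0.21 and -0.17 in mock. The groups stood apart by 0.35, and mock replicate 1 was the lowest array. The means were 0.28 ± 0.12 in ASXL1-MT and -0.27 ± 0.14 in mock (SD, n = 3 each), a change of 0.55 (SE 0.16), 1.46-fold higher in ASXL1-MT, or 0.44 relative to all probe sets. A change as high or higher was found in 27.6% of all probe sets. Cst3 was not called in the fit over all probe sets, and it was called in 0 of 6 fits with 1 array left out. It was called higher with the trend and robust variance model and among bright probe sets alone. Those fits called 3555 of 45037 and 4059 of 17355 probe sets higher, against 2130 of 45037 as reported.

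Cst7, which encodes the granule cystatin, fell. Probe set 1419202_at gave -1.15, -0.92 and -1.31 in ASXL1-MT marrow, against 0.92, 1.52 and 1.31 in mock, with a gap of 1.83 between the groups. Here mock replicate 1, the highest for the stefins, was the lowest of the mock arrays. The means were -1.13 ± 0.20 in ASXL1-MT and 1.25 ± 0.31 in mock (SD, n = 3 each), a change of -2.38 (SE 0.22), 5.19-fold lower in ASXL1-MT, or -2.48 relative to all probe sets. All 6 arrays lay on the step of bright signals, and the change ran from -2.54 to -2.24 with 1 array left out. Cst7 was called in 2 of 6 such fits as a probe set and in 6 of 6 as a gene.

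**Figure D2:**
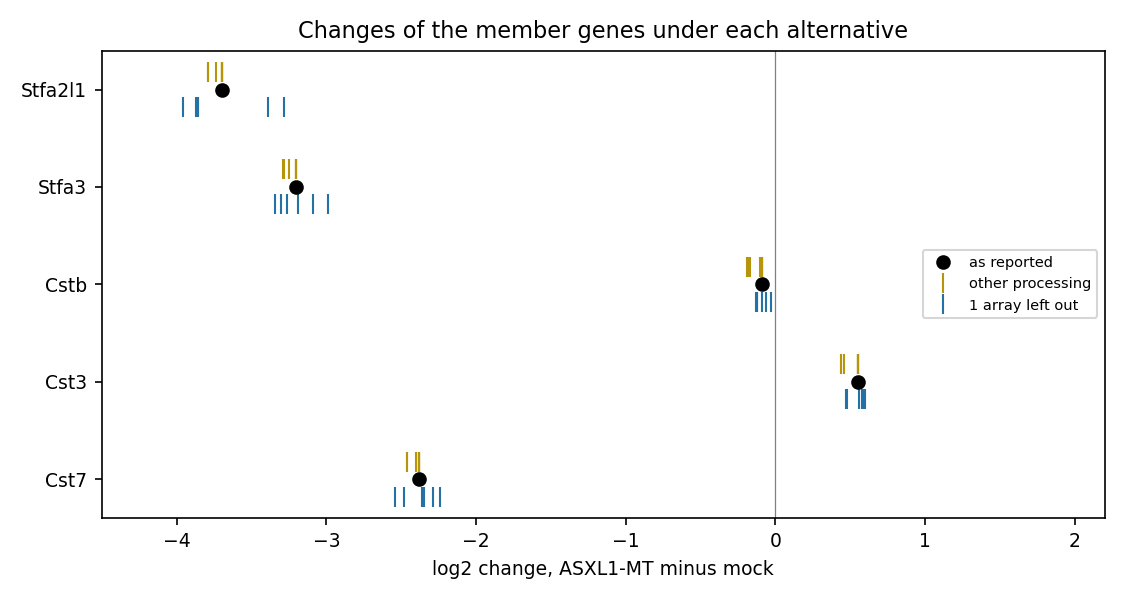
Log2 change of each member gene (horizontal axis, ASXL1-MT minus mock) as reported (black point), under other processing (yellow ticks) and with 1 array left out (blue ticks). Stfa2l1, Stfa3 and Cst7 stay below -2, Cst3 stays between 0.44 and 0.60, and Cstb stays between -0.19 and -0.03.

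The proteases that these inhibitors bind were read on the same arrays. Of 11 measured genes of cysteine cathepsins and legumain, 0 passed limma's test over all genes in either direction, where 11.4% of all genes were called. Without adjustment, 3 of 11 had a p under 0.05 and were higher and 0 were lower, beside 18.1% of all genes higher and 10.9% lower. Their median change was 0.27, against 0.11 over all genes. Ctsb and Ctss, which encode the broad lysosomal cathepsin B and the cathepsin S of antigen-presenting cells, had changes of -0.17 (adjusted p = 0.461 by limma) and 0.01 (adjusted p = 0.968 by limma). Of the 5 probe sets of Ctsb 4 were bright and alone gave -0.07, while 1444987_at, not bright, gave -0.60.

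Cathepsin C, the target of cystatin F, was measured on 3 bright probe sets. As a gene, Ctsc gave 0.28, -0.39 and -0.63 in ASXL1-MT marrow, against -0.13, -0.17 and 0.14 in mock, and the groups overlapped. Its change was -0.20 (SE 0.28, adjusted p = 0.696 by limma). The probe sets disagreed in sign, with 0.35 for 1416382_at, -0.13 for 1446834_at and -0.81 for 1437939_s_at.

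Some target genes had groups that did not overlap without passing. These were Ctsf (change 1.00), Ctso (0.64), Lgmn (0.47), Ctsh (0.31) and Ctsz (0.27), 5 genes of 11 and all higher, where 23.5% of all genes were apart in that direction. Ctsf was the mean of a pair of probe sets, neither of them bright, and on each alone the groups overlapped. Lgmn encodes legumain, an asparaginyl endopeptidase that cystatin C also inhibits. It gave 0.03, 0.46 and 0.24 in ASXL1-MT marrow, against -0.03, -0.33 and -0.33 in mock, with an adjusted p = 0.162 by limma. Ctsl, which encodes cathepsin L, had a change of -0.59 (adjusted p = 0.269 by limma) over a pair of probe sets that disagreed, with -1.23 on the bright 1451310_a_at and 0.04 on the dim 1457724_at. The values of Ctsk were -0.13, -0.68 and 0.94 in ASXL1-MT marrow, against -1.81, 0.13 and 0.27 in mock, and those of Ctsw, the cathepsin of T and NK cells, were -0.57, 0.31 and -0.31 against -2.03, 0.74 and 0.59. For both genes mock replicate 1 was far below the other mock arrays. With bright probe sets alone 43.5% of all genes were called, and 3 of 9 genes of this list, Ctso (adjusted p = 0.0407) and Lgmn (adjusted p = 0.0499) higher and Ctsl lower (adjusted p = 0.0105), all by limma.

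Cathepsins of other classes, which stefins do not inhibit, were taken for comparison. Ctsd, which encodes the aspartic cathepsin D, was the 1 of 4 that was called lower, where 4.75% of all genes were. It gave -0.70, -0.36 and -0.52 in ASXL1-MT marrow, against 0.42, 0.36 and 0.49 in mock. Its change was -0.95 (SE 0.15, adjusted p = 0.0218 by limma). That call was lost with any 1 array left out, where the change ran from -1.03 to -0.87 and the adjusted p from 0.0542 to 0.0885. Ctse and Ctsa had changes of 1.27 (adjusted p = 0.156 by limma) and 0.24 (adjusted p = 0.448 by limma). For Ctse mock replicate 1 gave -2.02, against -0.37 and -0.53 in mock replicates 2 and 3, and without that array its change was 0.74.

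Cathepsin C trims the proforms of granule serine proteases. Of 5 such genes 1 was called lower and 0 higher, where 4.75% of all genes were called lower and 6.63% higher. Elane, neutrophil elastase, gave -0.43, -0.48 and -0.52 in ASXL1-MT marrow, against 0.43, 0.73 and 0.59 in mock, a change of -1.06 (SE 0.14, adjusted p = 0.0161 by limma). It passed in 2 of 6 fits with 1 array left out. The changes of Ctsg, cathepsin G, and Prtn3, proteinase 3, were -0.39 (adjusted p = 0.159 by limma) and -0.33 (adjusted p = 0.219 by limma), with groups that did not overlap. Gzmb had a change of 0.09, and Gzma, the granzyme of cytotoxic lymphocytes, spread from -6.17 in mock replicate 1 to 2.35 in mock replicate 2, so its change of 0.09 carries an SE of 2.47.

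**Figure D3:**
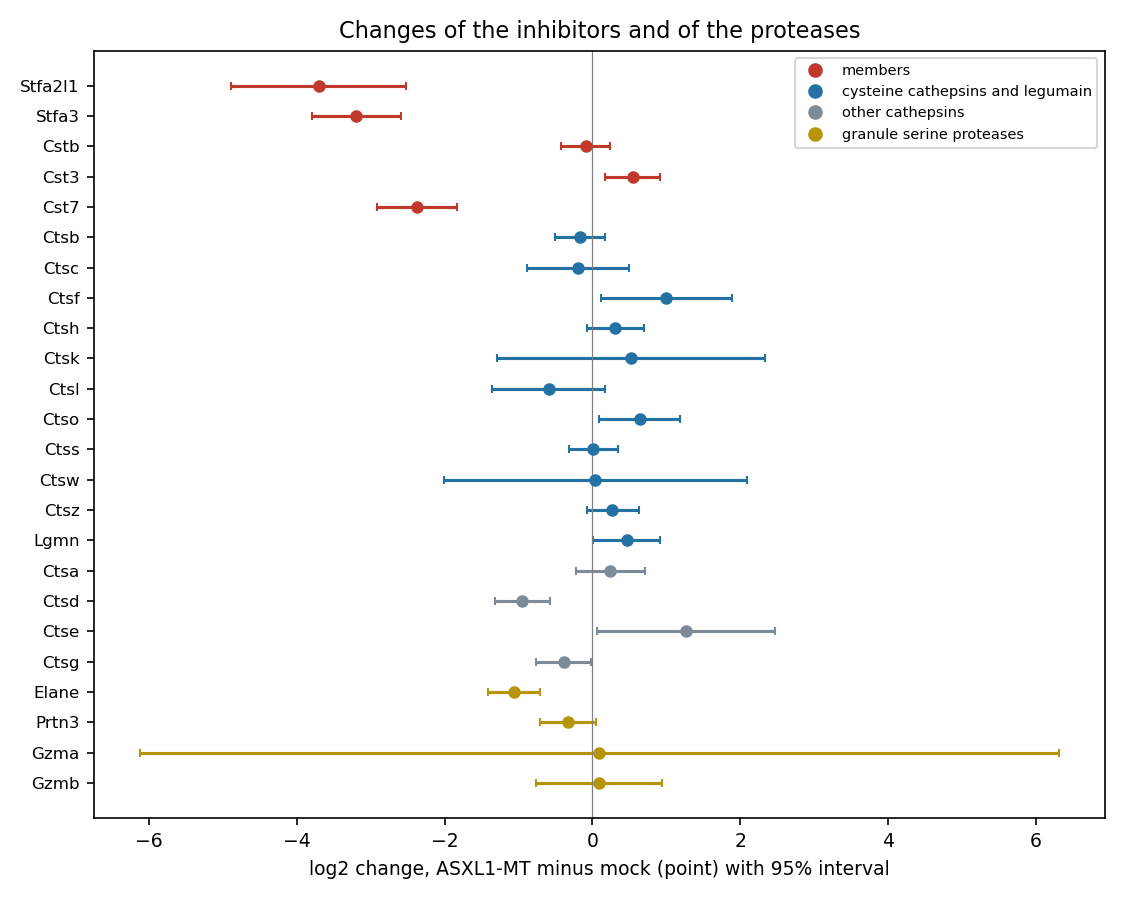
Log2 change, ASXL1-MT minus mock, with its 95% interval from limma (horizontal axis) for the member genes and for the protease genes, coloured by list. Stfa2l1, Stfa3 and Cst7 lie between -3.70 and -2.38, while the 11 cysteine cathepsin and legumain genes lie between -0.59 and 1.00.

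The remaining cystatin superfamily, mostly genes of the reproductive tract and liver, gave no call. Of 10 measured genes 0 passed limma's test in either direction, where 11.4% of all genes were called. Unadjusted p-values under 0.05 by limma were found for Cst9, lower, and Ahsg, higher, beside 10.9% of all genes lower and 18.1% higher. The genes were Cst6, Cst9, Cst10, Cst11, Cst12, Cst13, Kng1, Hrg, Ahsg and Fetub. None had a bright probe set, and their changes ran from -2.02 for Cst9 (adjusted p = 0.121 by limma) to 2.32 for Kng1 (adjusted p = 0.235 by limma). Large changes without a call were thus common among these dim genes. Of the measured members, Stfa2l1, Cstb, Cst3 and Cst7 were bright, while Stfa3 was not marked bright and was called.

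Marker lists of marrow cells were read on the same arrays. Of 10 neutrophil markers 10 had a bright probe set, of 11 monocyte and macrophage markers 7, of 9 T and NK cell markers 3, of 4 B cell markers 2 and of 3 erythroid markers 0, for cells labelled myeloid. In the marker lists, rose and fell stand for called higher and called lower in limma's test over all genes. Of the B cell markers 1 rose, Cd79b, and of the erythroid markers 1, Alas2, and 0 fell in either list. The background was 6.63% of all genes called higher and 4.75% lower. Of the 4 B cell markers 3 had negative changes, and the list's median change was -0.39. Without mock replicate 1, 0 genes of these 2 lists were called, in a fit that called 876 of 18193 genes, against 2072 with all arrays. Beside the falls of Stfa2l1 and Stfa3, 5 of 10 neutrophil markers fell and 0 rose, where 4.75% of all genes were called lower. The list's median was -0.56, -0.26 and -0.31 in ASXL1-MT marrow, against 0.27, 0.37 and 0.51 in mock. Those that fell were Il1r2, Mmp9, Cxcr2, Csf3r and Mmp8. The other 5 markers did not pass, with changes of -0.45 for Ltf (adjusted p = 0.13 by limma), -0.18 for S100a8, -0.17 for Camp, -0.15 for Ngp and 0.00 for S100a9. The groups of Ltf did not overlap. Without mock replicate 1, 2 of 10 neutrophil markers were called lower and 0 higher, where 381 of 18193 genes were called lower, against 865 with all arrays. Mock replicate 1, the highest array for both stefins, had the lowest neutrophil median of the mock arrays. The part of neutrophil number in the fall of the stefins was not tested.

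Cst3 was higher beside markers of dendritic cells, of which 8 of 10 rose and 0 fell, where 6.63% of all genes were called higher. Those that rose were the antigen presentation genes H2-Aa, H2-Ab1, H2-Eb1, Cd74 and Ciita, and also Siglech, Bst2 and Batf3. Itgax and Xcr1 were not called. Without mock replicate 1, 7 of 10 rose. That fit called 495 of 18193 genes higher and 381 lower, against 1207 and 865 with all arrays. Their median was 1.07, 0.97 and 1.23 in ASXL1-MT marrow, against -2.11, -0.96 and -1.07 in mock, and mock replicate 1 was the lowest array in this list as it was for Cst3. That array was also the lowest in the monocyte and macrophage list and in the T and NK cell list. Of 11 monocyte and macrophage markers 2 rose, Ly86 and Cd163, and 1 fell, Vcam1, while 0 rose and 1 fell without mock replicate 1. That list's median was 0.01, 0.24 and 0.33 in ASXL1-MT marrow, against -0.51, -0.02 and -0.04 in mock. The part of these cells in the values of Cst3 was not tested.

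Cst7 is made by several cell types, and their markers did not move as one. Of 9 T and NK cell markers 2 rose and 1 fell, with 1 and 0 without mock replicate 1, and of 7 basophil, mast and eosinophil markers 2 fell and 0 rose, with 3 and 0 without mock replicate 1. Over all 18193 genes, 1207 were called higher and 865 lower with all arrays, and 495 and 381 without mock replicate 1. The T and NK cell median was 0.01, 0.04 and -0.04 in ASXL1-MT marrow, against -1.35, 0.01 and 0.29 in mock. The median of basophil, mast and eosinophil markers was -0.60, -0.21 and -0.43 in ASXL1-MT marrow, against 0.00, 1.13 and 0.87 in mock. In both lists, as for Cst7, mock replicate 1 was the lowest mock array. It was also the lowest mock array in the neutrophil, the monocyte and macrophage, and the dendritic cell lists. Nkg7, a granule membrane gene of NK cells and some myeloid cells, had a change of -1.18 (adjusted p = 0.0363 by limma), while Cd8a and Klrd1 had changes of 2.99 (adjusted p = 0.00773 by limma) and 2.85 (adjusted p = 0.0453 by limma). The part of each cell type in the fall of Cst7 was not tested.

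**Figure D4:**
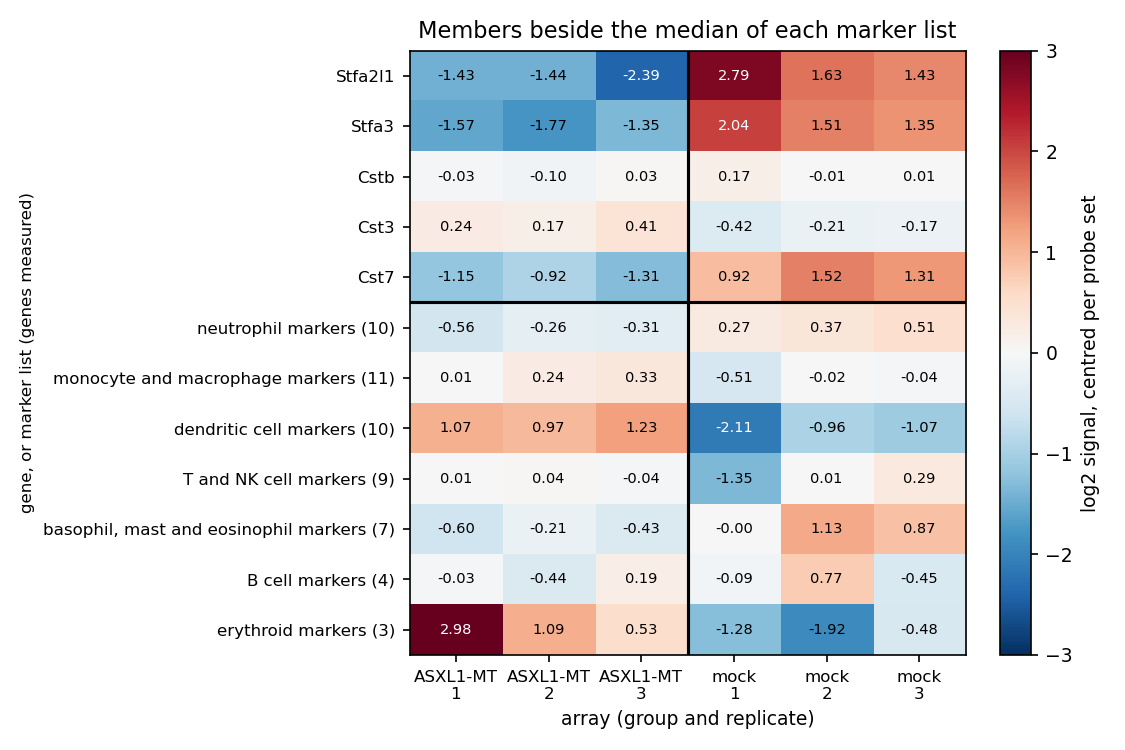
Centred log2 signal of the 5 member genes (rows above the line) and the median of each marker list (rows below it) on each array, with ASXL1-MT arrays left of mock arrays and red for higher values. Stfa2l1, Stfa3 and Cst7 are low in ASXL1-MT, as are the neutrophil list and the basophil, mast and eosinophil list. Cst3 is high there, as are the dendritic cell, erythroid, and monocyte and macrophage lists.

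The genes whose values lay closest to each member over the 6 arrays, by root mean square difference, differed from member to member. For Stfa2l1 they were Asprv1, itself a protease gene, at 0.29, Foxd4 at 0.33 and Sgms2 at 0.36, and for Stfa3 they were an immunoglobulin kappa variable segment at 0.20, Tas1r3 at 0.29 and Lefty1 at 0.29. Cst7 was closest to Clu at 0.16, Lima1 at 0.18 and Hdc, the histamine-forming enzyme, at 0.21, which had a change of -2.39 beside the -2.38 of Cst7. Cst3 was closest to Apex1 at 0.05, Tmem199 at 0.06 and Pold1 at 0.06, and Cstb to Mrpl9, Mad2l1bp and Slc35b1, each at 0.04. The measure is over 6 arrays of 2 groups and describes these arrays alone.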

How the data were processed

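RNA of 6 mouse marrow samples (3 ASXL1-MT, 3 mock, grouped by their titles) was measured on Affymetrix arrays. MAS5 is the algorithm named in the submitters' processing notes. The deposited values are log2 by assumption, since the log base and centring are not given in the sources used here; every row median is 0 to within 5e-07. Symbols came from the platform annotation: 34945 probe sets had 1, 932 several and 9160 none, and 34741 of the first kind matched RefSeq by gene ID. A gene is the mean of its probe sets. ASXL1-MT and mock were compared with lmFit and eBayes of limma 3.58.1 (R 4.3.3) over the whole table, group the only term, with Benjamini-Hochberg adjustment, a threshold of 0.05 and no filter; the fit was tested on simulated data. Depth is unknown, and the number of arrays limits precision. A bright probe set has its 3 highest arrays on the rounding step of 20 binary places. Members and lists were chosen with earlier results of these data known. Named genes are all members, all measured genes of the protease and cystatin lists, markers a result turns on, and per member the 3 nearest genes. Alternatives were quantile, cyclic loess and median scaling, trended and robust variance, bright probe sets alone, the least variable probe set per gene, a replicate block, and each array left out in turn.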

Additional observations from a re-analysis of the deposited data

How the results depend on the processing

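All 11 member values (6 probe sets, 5 genes) kept their sign under each alternative that gave one, and 139 of 146 moved by less than the SD within groups; the 7 others were values of Cstb after rescaling of the arrays, between -0.20 and -0.18. Against 3646 of 45037 probe sets as reported, 5816 of 45037 were called with the trend and robust variance model, 6766 of the 17355 bright ones when fitted alone, and 66 to 1142 with 1 array left out; against 2072 of 18193 genes, the counts were 4120 of 9477 with bright probe sets alone, 3898 with each gene's least variable probe set and 192 to 1033 with 1 array left out. Member probe sets called ran from 0 to 3 with 1 array left out (ASXL1-MT replicate 1 left 2, ASXL1-MT replicates 2 and 3 left 0, mock replicate 1 left 3, mock replicate 2 left 0 and mock replicate 3 left 1), and member genes from 2 to 3. Cysteine cathepsin and legumain genes called numbered 3 among bright probe sets and 2 with the least variable probe set, against 0 as reported and 0 with any 1 array left out. Replicate numbers are shared only in the titles, which state no pairing. Deviations of same-numbered arrays correlated at -0.012 to -0.009. With 3 arrays per group this cannot settle whether same-numbered samples were paired, and the reported fit takes them as unpaired. The replicate block gave 0 calls of probe sets, of genes and of members by limma, with 9874 probe sets, 4 of 6 member probe sets among them, at an unadjusted p under 0.05. Stfa3 has no value among bright probe sets. Of 407 values under alternatives of the 30 protease and other cystatin genes, 12 lost and 7 gained a call, and 24 of 10 genes changed sign, none of them in a called gene and none called after the change. These were Ctsb (0.05) and Ctsc (0.35) with the least variable probe set; Ctss (-0.08, -0.09, -0.07) and Ctsw (-0.06, -0.06, -0.04) under quantile, loess and median scaling; Gzma (-0.07) under quantile scaling; and, over the fits with 1 array left out, Ctsk (-0.15 to 0.89), Ctss (-0.03 to 0.07), Ctsw (-0.85 to 0.53), Gzma (-2.74 to 1.52), Gzmb (-0.27 to 0.28), Cst6 (-1.48 to 0.35), Cst11 (-1.96 to 0.21) and Fetub (-0.03 to 0.51). Marker lists were refitted only without mock replicate 1, a choice made after seeing the data, which called 2 neutrophil, 1 monocyte and macrophage, 7 dendritic cell, 1 T and NK cell, 3 basophil, mast and eosinophil, 0 B cell and 0 erythroid markers, against 5, 3, 8, 3, 2, 1 and 1 with all arrays. That refit called 876 of 18193 genes, against 2072 with all arrays, 586 without mock replicate 2 and 574 without mock replicate 3. Brightness limits the dim genes, where the SD within groups was 0.81.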

Other observations

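Mock replicate 1 stood apart from the other mock arrays in several genes of the marker lists whose own values are not given above. Over all probe sets it was about as far from them as they were from each other. Its root mean square differences were 1.251 from mock replicate 2 and 1.263 from mock replicate 3, against 1.256 between those. The complement genes of tissue macrophages gave -5.48 for C1qa, -2.32 for C1qb and -4.42 for C1qc on that array, against 0.04, -0.22 and -0.02 in mock replicate 2 and -0.04, -0.01 and 0.02 in mock replicate 3. Xcr1, a receptor of cross-presenting dendritic cells, gave -4.22 there, against 0.04 and -1.52 in mock replicates 2 and 3, and Ncr1, a receptor of NK cells, gave -4.26, against 0.01 and 0.40. Epx, eosinophil peroxidase, gave -0.76 on the same array, against 2.61 and 2.26. None of the C1q, Xcr1 and Ncr1 probe sets was bright, while that of Epx was. Erythroid markers spread most within ASXL1-MT, with a list median of 2.98, 1.09 and 0.53 in replicates 1 to 3, against -1.28, -1.92 and -0.48 in mock.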
